A study of Drosophila melanogaster with 2 samples.

Results

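Progress through mitosis is set by the mitotic cyclins, by the phosphatase that switches on their kinase, and by the anaphase-promoting complex or cyclosome (APC/C), which destroys them. The 10 genes described here are CycA, CycB and CycB3, the mitotic cyclins, stg (string), the Cdc25-type phosphatase, shtd (shattered), mr (morula), ida (imaginal discs arrested) and Cdc27, subunits of the APC/C, and fzy (fizzy) and fzr (fizzy-related), its activators. They are a named set of mitotic regulators, put together with earlier results of these data known, out of the 13968 protein-coding genes on the 7 assembled arms of the genome. Counts of called members are therefore descriptions of a chosen set. All 10 were found in the annotation, with 14 transcription start sites in all.

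The series is a chromatin immunoprecipitation and sequencing (ChIP-seq) experiment on whole Drosophila melanogaster embryos. The flies carried a transgene for tna (tonalli) fused to eGFP, chromatin was precipitated with an antibody to GFP, and the antibody entry of the labels names tna. Embryos were 0 to 24 h old, so all embryonic tissues and stages were pooled, and chromatin was sonicated to 200 to 800 bp. Both libraries, labelled biological replicates 1 and 2, come from the same line and form 1 group. The sex of the embryos was not collected, and no control library was analysed here, so the level in embryos without the tag is not known. The tonalli protein carries an SP-RING, the domain of SUMO ligases, and is known genetically as a partner of the Brahma remodelling complex. Only peak lists were used: they give no read counts, the depth is unknown, and a library's error cannot be computed.

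Cyclins A, B and B3 bind the kinase Cdk1, and string removes the inhibitory phosphates from it, which in the fly embryo sets the time of the later divisions. At the exit from mitosis the APC/C joins ubiquitin to the cyclins and to securin, first with fizzy (the Cdc20 type) and then with fizzy-related (the Cdh1 type) as activator. Fizzy-related also keeps cyclins low in cells that leave the cycle or replicate their DNA without dividing.

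The promoter sequences are shown first, to let the strings described later be read in place. Each is read 5′ to 3′ on the coding strand of the gene, up to the base before its start, from the RefSeq sequence of dm6. The members with a reproducible peak are represented by CycA, at chr3L:11833579-11833728 on the minus strand, by shtd, at chrX:15462442-15462721 on the minus strand, and by Cdc27, at chr3L:7249341-7249490 on the minus strand. Capitals in CycA mark the DNA replication-related element (DRE), spelled TATCGATA, the site of the factor DREF. Capitals in shtd and Cdc27 mark CGATA on either strand, the core of the DRE and also the target of the insulator protein BEAF-32. The shtd stretch is the whole of the sequence between its start and the start of its divergent neighbours.
CycA: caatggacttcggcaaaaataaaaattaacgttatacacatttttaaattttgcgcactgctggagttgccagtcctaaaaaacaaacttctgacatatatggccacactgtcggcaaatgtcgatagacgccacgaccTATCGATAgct
shtd: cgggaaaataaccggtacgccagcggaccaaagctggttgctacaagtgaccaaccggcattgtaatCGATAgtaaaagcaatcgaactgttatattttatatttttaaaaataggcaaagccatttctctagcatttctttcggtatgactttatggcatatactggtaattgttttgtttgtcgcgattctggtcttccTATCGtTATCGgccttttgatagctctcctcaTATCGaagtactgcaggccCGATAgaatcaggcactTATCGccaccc
Cdc27: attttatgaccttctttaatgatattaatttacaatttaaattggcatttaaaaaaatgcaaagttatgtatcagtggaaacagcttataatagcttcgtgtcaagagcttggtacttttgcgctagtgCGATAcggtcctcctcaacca

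Members without a peak in the conservative list are represented by CycB3, at chr3R:24870817-24870966 on the minus strand, by fzy, at chr2L:16310806-16310955 on the plus strand, and by the outer start of stg, at chr3R:29255801-29255950 on the minus strand. None of these 3 stretches holds CGATA. Capitals in CycB3 and fzy mark core promoter Motif 1, spelled GGTCACAC, and in fzy it ends at the base before the start. Capitals in stg mark a TATA box, spelled TATAAA.
CycB3: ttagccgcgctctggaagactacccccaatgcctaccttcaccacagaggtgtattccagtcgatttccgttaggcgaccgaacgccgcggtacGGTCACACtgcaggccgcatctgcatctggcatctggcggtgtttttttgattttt
fzy: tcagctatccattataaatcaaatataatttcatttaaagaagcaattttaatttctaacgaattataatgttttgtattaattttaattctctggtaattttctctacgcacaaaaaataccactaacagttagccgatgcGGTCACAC
stg: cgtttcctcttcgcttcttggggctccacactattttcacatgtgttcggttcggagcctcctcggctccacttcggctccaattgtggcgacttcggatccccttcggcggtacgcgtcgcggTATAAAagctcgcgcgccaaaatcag

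In the conservative list, the 2580 peaks reproducible between the replicates, a summit lay within 500 bp of a start in 5 of the 10 genes. These were CycA, CycB, shtd, mr and Cdc27, and 18.2% of all protein-coding genes had such a summit. The other list made from both replicates, with 3500 peaks, added CycB3 and ida, so that 7 of 10 had a promoter summit, beside 22.2% of all genes. In the list of replicate 1 alone the count was 5 of 10, beside 16.4%. In the list of replicate 2 alone it was 6 of 10, with ida, beside 17.7%. Counting summits anywhere in the gene as well left 5 of 10 in the conservative list, beside 19.7%, and no member in any list had a summit in its body that lay farther than 500 bp from a start. The same 5 genes were called in all 4 lists, and stg, fzy and fzr were called in none. The number of starts differs between genes: among genes with 1 start 15.2% were called in the conservative list and 4 of the 7 such members were, and among genes with more starts 26.5% were called and 1 of the 3 such members was.

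Each peak carries a signal, the caller's own value, which has no stated scale and was compared only within a list. The rank of a peak by signal is given beside the length of its list, and its percentile is the share of the list with a signal no higher. Summit positions are given in bp from the nearest start of the gene, and negative values lie upstream.

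Of the cyclin genes, CycB had the strongest peak, and in the conservative list it was the strongest of all 10 members. In the replicate 1 list the shtd peak was stronger, with a signal of 417. CycB (FBgn0000405, cyclin B, minus strand, 2R 22803521 to 22806948 in dm6) had a conservative peak at 22806874 to 22807188 with a signal of 739.6, which ranked 23 of 2580. In the replicate 1 list its signal of 408 ranked 24 of 2217, and in the replicate 2 list its signal of 332 ranked 38 of 2669. It thus stood in the top part of each list, at percentiles of 99.1, 99.0 and 98.6. The summit lay at -76 from the outermost of the 3 CycB starts in the conservative and replicate 2 lists and at -74 in the replicate 1 list. No other protein-coding gene starts within 500 bp of this summit.

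CycA (FBgn0000404, cyclin A, minus strand, 3L 11826719 to 11833578) had a weaker peak with a summit at -39, and its signal of 259.8 ranked 640 of 2580, at percentile 75.2. In replicate 1 its signal of 122 ranked 804 of 2217 with a summit at -21. In replicate 2 its signal of 138 ranked 552 of 2669 with a summit at -38. Both replicates placed it above the median of their own lists, 98.6 and 92.0. The CycA peak spanned 173 bp in the conservative list and 113 and 145 bp in the lists of replicates 1 and 2. In the conservative list 65.5% of the peaks had the same width of 410 bp. A smaller width was not particular to CycA, as the CycB peak spanned 315 bp there.

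CycB3 (FBgn0015625, cyclin B3, minus strand, 3R 24867934 to 24870816) was called only in the other list from both replicates, where a signal of 112 at -90 ranked 2417 of 3500, at percentile 31.0. The deposited q-value of this peak was 0.159. The ranked lists, which hold every peak scored for its irreproducible discovery rate (IDR) before any threshold, show how near it lay to a call. In the ranked list behind the conservative list its IDR was 0.0197, against the threshold of 0.01, and in the list behind the other list it was 0.00303. The replicates differed: the strongest CycB3 peak had a signal of 96.6 and rank 1273 of 110091 in replicate 2, with an IDR of 0.715 there, and a signal of 36.1 and rank 8641 of 126713 in replicate 1. The summits of these peaks lay 92 bp apart.

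The phosphatase gene stg (FBgn0003525, minus strand, 3R 29251826 to 29255800) had no peak in the 4 thresholded lists. Its strongest ranked peak within 500 bp of either start had a signal of 50.6 at 166 bp inside the gene, with an IDR of 0.342. In replicate 1 the signal was 6.83 and in replicate 2 it was 31.7, and these summits lay 415 bp apart. The nearest conservative summit was 26.22 kb away, at the start of Usp1, a deubiquitinating enzyme gene, and none lay within 20 kb of stg.

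Of the APC/C subunit genes, shtd had the strongest peak. Shattered is the Apc1 subunit, the large scaffold of the complex, and its gene (FBgn0004391, minus strand) lies at X 15455544 to 15462441. The conservative peak at 15462312 to 15462782 had a signal of 734 and ranked 25 of 2580, at percentile 99.1. In replicate 1 the signal of 417 ranked 21 of 2217, and in replicate 2 the signal of 324 ranked 41 of 2669. With CycB it formed a pair far above the other members: the next, CycA, ranked 640 in the conservative list.

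Of the members called in any thresholded list, only shtd had a promoter summit within 500 bp of another protein-coding gene's start. Sharing was not examined for stg, fzy and fzr, which had no called summit. CG6294 and CG6299 start together at 15462722 on the plus strand and run away from shtd. The conservative interval of 471 bp spans both starts and carries 2 summits. The main summit lay at -71 from shtd and at -210 from CG6294 and CG6299, and the weaker summit, with a signal of 127 and rank 1877, lay at -279 from shtd and at -2 from CG6294 and CG6299. Replicate 2 also had 2 summits, with signals of 324 at -46 and 94.5 at -247 from shtd. Replicate 1 had a single summit between them, at -143. The main summits of the replicates thus lay 97 bp apart, and the interval cannot be assigned to 1 of the 3 genes from these positions.

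**Figure D1:**
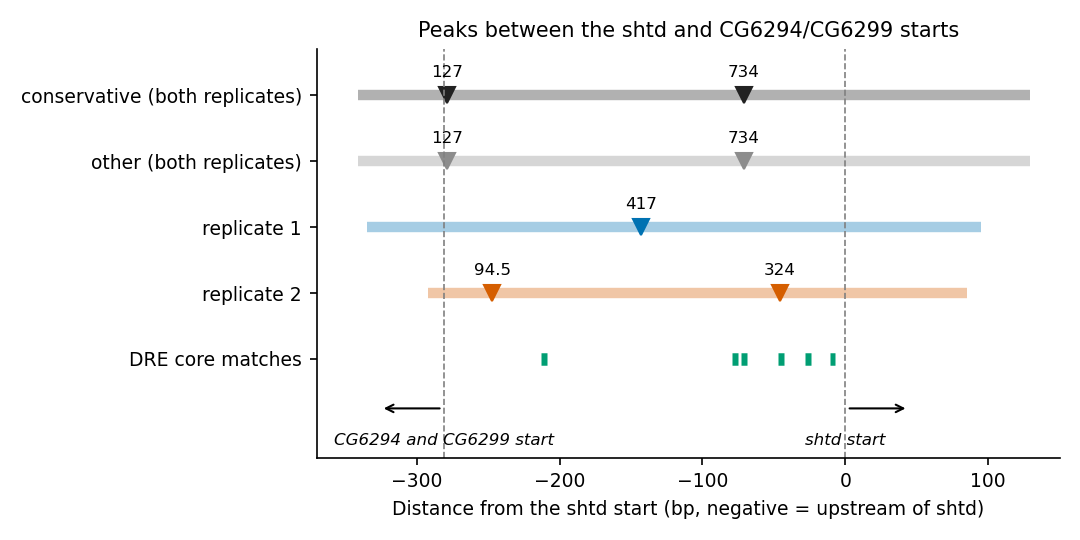
Peaks at the shared promoter of shtd, CG6294 and CG6299, by distance from the shtd start in bp. Bars are peak intervals, triangles are summits with the signal written above (comparable within a list only), arrows show the direction of transcription, and green ticks are the 6 CGATA matches, the DRE core. The main summit lies on the shtd side in every list except that of replicate 1, where the single summit is at -143, near the middle.

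The subunit genes mr and Cdc27 had peaks of middle rank. Morula is the cullin-like Apc2 subunit, and mr (FBgn0002791, plus strand) lies at 2R 23972431 to 23975408. Its conservative signal of 186 at -25 ranked 1112 of 2580, the replicate 1 signal of 113 at -7 ranked 913 of 2217, and the replicate 2 signal of 75.4 at -1 ranked 1867 of 2669. It stood above the median of the replicate 1 list and below that of the replicate 2 list. The other list from both replicates held a further weak mr summit 198 bp inside the gene, with a signal of 19.1 and a q-value of 0.694.

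Cdc27, the Apc3 subunit with tetratricopeptide repeats, which receives the activators, is encoded by a gene on the minus strand at 3L 7245481 to 7249340 (FBgn0012058). Its conservative signal of 164 at 1 bp inside the gene ranked 1358 of 2580, just below the list's median of 169. In replicate 1 the signal of 77.6 ranked 1467 of 2217 and in replicate 2 the signal of 65.2 ranked 2248 of 2669, both below the median of the list. The deposited q-value of the replicate 2 peak was 0.123. The summits of the replicates lay 9 bp apart.

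For ida, the Apc5 subunit gene (FBgn0041147, plus strand, 3L 3905344 to 3907813), calls differed between lists. The other list from both replicates had a peak with a signal of 105 at 21 bp inside the gene, rank 2674 of 3500, and replicate 2 had one with a signal of 65.5 at -15, rank 2240 of 2669. The deposited q-values of these peaks were 0.209 and 0.121. In replicate 1 the strongest ranked peak had a signal of 34.2 and rank 10530 of 126713. The IDR was 0.0350 in the ranked list behind the conservative list and 0.00403 in that behind the other list. The replicate summits lay 6 bp apart, although only replicate 2 passed its own threshold.

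Neither activator gene had a thresholded peak. The strongest ranked peak of fzy (FBgn0001086, plus strand, 2L 16310956 to 16313097) had a signal of 89.4 at -382 with an IDR of 0.622. In replicate 1 the strongest was at 384 bp inside the gene with a signal of 25.0, and in replicate 2 it was at -330 with a signal of 40.1. The replicates thus placed it on opposite sides of the start, 714 bp apart.

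The gene fzr (FBgn0262699, minus strand, X 4667290 to 4679537) was the longest of the members and has 2 starts. Its strongest ranked peak had a signal of 40.2 at 241 bp inside the gene and an IDR of 0.502. In replicate 1 the signal was 17.7 at 245 bp, in replicate 2 it was 36.9 at -478, and the summits lay 723 bp apart. Of the 10 members fzr had the lowest signal in the ranked list behind the conservative list and stg the lowest in each replicate.

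All 10 members had some ranked peak within 500 bp of a start, and so did 76.4% of all protein-coding genes in the ranked list behind the conservative list. The signal of the strongest such peak had a median of 138 over the members and 51.9 over all genes, with genes that have no peak at 0. In the ranked list of replicate 1 these medians were 56.8 and 24.3, and in that of replicate 2 they were 70.4 and 32.9. Ranked in this way among the 13968 genes, CycB and shtd stood at percentile 99.8, CycA at 94.0, mr at 89.9 and Cdc27 at 87.7. CycB3 followed at 80.5, ida at 78.8 and fzy at 73.4, while stg stood at 49.0 and fzr at 41.0. Percentiles below the top 3 moved between replicates, and the order with them: mr stood at 91.4 in replicate 1 and 84.3 in replicate 2, Cdc27 at 86.7 and 79.7, CycB3 at 68.3 and 89.9, and ida at 65.7 and 79.9. The uncalled fzy stood at 51.4 and 58.9, both below its place in the list from both replicates. The lowest pair was also uneven, with stg at 21.0 and 48.6 and fzr at 36.5 and 54.9. CycB, shtd and CycA held the top places in both.

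**Figure D2:**
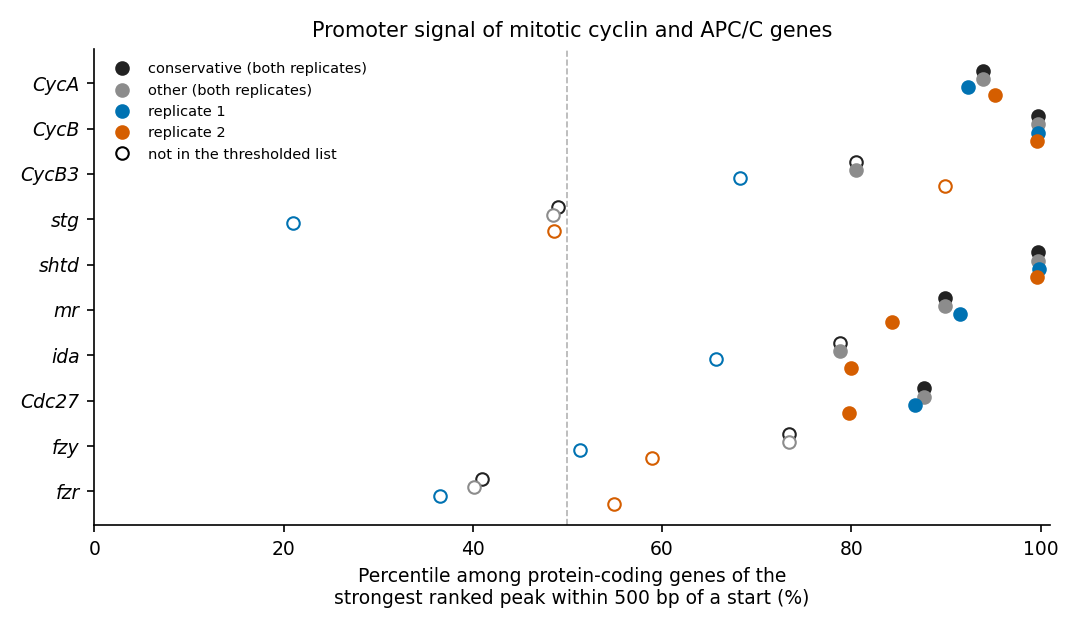
Percentile of each member among the 13968 protein-coding genes by the signal of its strongest ranked peak within 500 bp of a start, in 4 ranked lists. Filled points were also called in the thresholded list, and the dashed line is the middle of all genes. CycB and shtd lie above 99 in all 4 lists, and stg lies below the dashed line in all 4.

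The conservative summits nearest to CycB3, fzy and ida lay near starts of other genes. They were 5.88 kb from CycB3, at the start of CG3744, 3.76 kb from fzy, near the start of CG5861, and 4.32 kb from ida, at the start of mge, a mitochondrial import receptor gene. The one nearest to fzr lay 5.23 kb from a start, with no protein-coding start within 500 bp.

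The strings searched in the 300 bp around each start, from 250 bp before to 50 bp after, on both strands, included the DRE core. All 5 members called in the conservative list held CGATA, close to the 87.4% of all genes called there, and none of the 5 uncalled members did, beside 45.4% of all uncalled genes. In the other list from both replicates, where CycB3 and ida are called as well, 5 of the 7 called members held it, beside 82.2% of the genes called there. In the replicate 2 list, which calls ida, 5 of 6 held it, beside 83.6%. Among all protein-coding genes 53.0% held CGATA. Read the other way, 30.0% of genes with CGATA were called and 4.89% of genes without it. Matches are a description of letters, and genes with more starts have more sequence to match in.

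The number and place of the matches differed between members. The shtd promoter held 6 CGATA matches, between -213 and -7, and a match at -73 to -69 was centred on the conservative summit. CycB held 6 within the window of its outermost start, where the peak lies, and CycA and mr held 3 each and Cdc27 held 2. The full DRE, in which CGATA occurs on both strands and so counts as 2 matches, was found in CycA and mr and lay at -11 to -4 in both. It was held by 10.2% of all genes and by 33.7% of the called genes. Within 100 bp of the strongest conservative promoter summit, all 5 called members held CGATA and 2 held the DRE. Of all 2580 conservative summits, 65.0% held CGATA and 23.4% the DRE. These include summits away from any protein-coding start, so the shares are not for promoter summits alone. In the 300 bp windows around starts, 87.4% of the called genes held CGATA.

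Strings other than the DRE and its core each had matches in both called and uncalled members. Motif 1 was held by CycB, CycB3 and fzy, 1 called and 2 uncalled members, beside 8.69% of all genes. Strings for E2F, spelled TTTCGCGC or with GG or CC in place of its first CG, were held by CycB and stg, and 6.50% of genes held one. The Myb string TAACGG was found in CycB, CycB3 and stg and in 11.2% of genes, and the string of the cell cycle genes homology region, TTTGAA, in CycB, CycB3, ida and mr and in 46.1%. In CycB the E2F and Myb strings lay at its innermost start, 616.5 and 647.5 bp from the conservative summit. None of the 5 called members held an E2F or Myb string within 100 bp of its strongest conservative promoter summit. TTTGAA was held there by 3 of the 5, beside 26.4% of all 2580 conservative summits. TATAAA was held at any place in the window by 8 members and the Initiator string TCAGT by 7. Of all genes, 51.2% and 58.5% held them. Outside stg, the TATAAA matches lay between -239 (CycA) and -115 (ida), or began at the start itself (Cdc27). Both stg starts had a TATA box, beginning at -26 and -28, and the outer one an Initiator string that ends at the start.

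**Figure D3:**
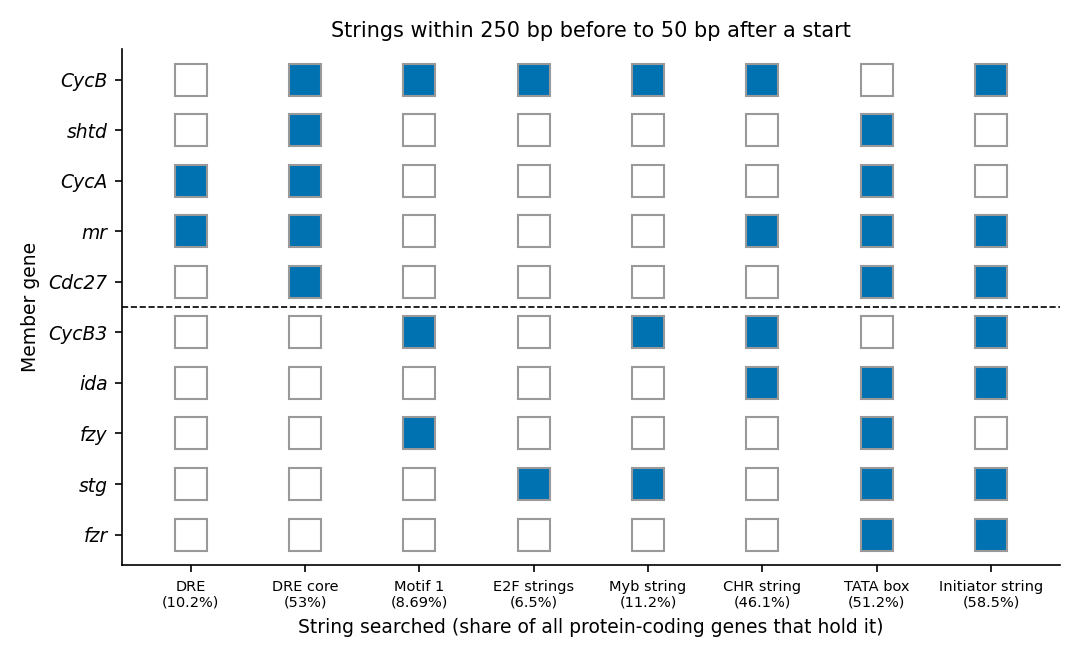
Strings found around the starts of each member. Filled squares mark a match on either strand, the dashed line separates the 5 members called in the conservative list (above) from the 5 uncalled, and the percentage under each name is the share of all protein-coding genes that hold it. TATA box is TATAAA at any place in the window. DRE core is CGATA: it fills every square above the line and none below, where CycB3 and ida are members called in other lists.

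Among related genes, the spindle checkpoint list had the highest share of calls. Of 12 genes for securin, separase and the checkpoint, 8 had a promoter summit in the conservative list, 10 in the other list from both replicates, 7 in replicate 1 and 9 in replicate 2. The shares of all protein-coding genes in these lists were 18.2, 22.2, 16.4 and 17.7%. BubR1, the checkpoint kinase-like protein, led with a signal of 333 and rank 373. Zw10 followed with 239 at a summit nearer to Klp3A, Bub3 with 184 at a promoter shared with Cap-D2, and Zwilch with 179 at one shared with CG1542. Most of the 8 genes called in the conservative list shared their strongest promoter summit with another protein-coding gene. Those calls cannot be assigned to the listed gene alone. CGATA was held by 11 of the 12, including all 8 called, and the DRE by 6, beside 53.0% and 10.2% of all genes.

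Of 12 other genes for the APC/C and its partners, 3 were called in the conservative list, 2 in the other list, 2 in replicate 1 and 3 in replicate 2. Cdc26 (CG17343 in the annotation), a small stabilising subunit, had a signal of 651 and rank 54, lmg (lmgA), the RING subunit, had 331 at a start shared with lmgB, and Cdc16, a tetratricopeptide subunit, had 108. CGATA was held by 9 of these 12 genes, beside 53.0% of all genes. Of the 9, 2 were called, beside 30.0% of all genes with the string. Among 13 mitotic kinase and phosphatase genes 3 were called in the conservative list: aurA, Aurora A, with a signal of 205, polo with 147, and mts, a phosphatase 2A catalytic subunit gene, with 11.1 at a summit nearer to Rack1. Among 15 other cyclin and Cdk genes 5 were called, with Cdk2 at 313, Cdk7 at 243 at a summit nearer to snf, Cdk9 at 154 at one nearer to bonsai, and Cdk4 at 131. In the conservative list 25.0% of the other APC/C list and 23.1% of the kinase and phosphatase list were called. The share was 33.3% for the cyclin and Cdk list and 18.2% for all protein-coding genes. These counts are descriptions, and no test of any difference between the lists was made.

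**Figure D4:**
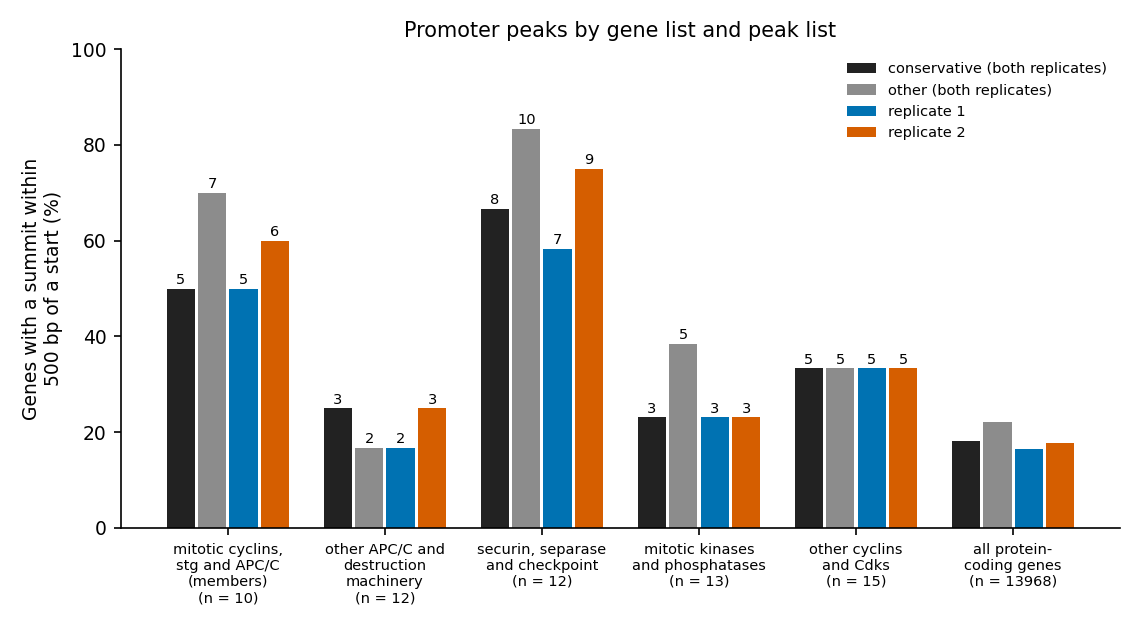
Share of genes with a summit within 500 bp of a start, in percent, for 5 gene lists and all protein-coding genes, in the 4 thresholded peak lists. Numbers on the bars are counts of genes, and n is the size of each list. The members have 5, 7, 5 and 6 of 10, the checkpoint list 8, 10, 7 and 9 of 12, and all genes 18.2, 22.2, 16.4 and 17.7%.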

How the data were processed

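The deposited files used here are peak lists on dm6 from 2 ChIP-seq libraries, 1 thresholded and 1 ranked list from each replicate's alignment and 2 of each kind from both replicates, per the deposited notes. For the aligner and the peak caller, names and versions were not given in the sources used here, nor was any scale for the signal, which is the authors' deposited value per peak. The other deposited columns used are −log10 of the q-value, and −log10 of the IDR, the rate of peaks that do not repeat between a pair of lists. All 2580 conservative peaks were found in the ranked list behind it at an IDR of at most 0.01. The 16 columns of per-replicate values in the ranked lists from both replicates were not used, and each replicate was read from its own lists.

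A summit is the deposited start plus the deposited offset. It was assigned to a gene when it lay within 500 bp of any start of that gene in the Ensembl annotation of release 115, or in the gene. All 10 members have the same coordinates in RefSeq. The members, the other gene lists and the strings searched were chosen with earlier results of these data known. The text names all members, genes that share a promoter summit with one, and from each of 4 other lists up to 4 genes with the highest conservative signal. The symbols lmg and Cdc26 were matched through RefSeq synonyms.

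With 1 group of 2 samples no test was made, and counts stand beside the share of all protein-coding genes. The placing of summits was checked on simulated peaks. Alternatives covered the other lists, each replicate alone, other distances, peak intervals, other IDR and q-value thresholds and the nearest start alone. Python 3.11.15, pandas 2.3.3, NumPy 2.4.6 and Matplotlib 3.10.9 were used.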

Additional observations from a re-analysis of the deposited data

How the results depend on the processing

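The count of members with a promoter summit, 5 of 10 beside 18.2% of all genes, was also 5 with distances of 250 bp (15.9% of all genes) and 1000 bp (20.5%), with the peak interval in place of the summit (14.5%), and with a q-value of at most 0.05 or the nearest start alone (13.9% each). It was 6 without replicate 1 (17.7%), 5 without replicate 2 (16.4%), and 7 in the other list from both replicates (22.2%) and at an IDR of at most 0.05 (25.7%). At an IDR of at most 0.001, where fewer peaks pass, it fell to 3 (CycA, CycB and shtd), beside 9.45% of all genes with a promoter summit. The count of members with gene bodies included was also 3 at that threshold. That threshold was applied to the ranked list behind the conservative list, where the IDR was 0.00149 for mr and 0.00325 for Cdc27. For Cdc27 it lay between 0.001 and 0.01 in all 4 ranked lists. For mr it was 0.000403 in the list behind the other list, 0.000262 in replicate 1 and 0.00562 in replicate 2. Percentiles within a list moved most for Cdc27, from 47.4 in the conservative list to 15.8 in replicate 2 and 33.9 in replicate 1, and for mr, which stood at 30.1 in replicate 2. The percentiles among all genes by ranked lists were an alternative chosen after seeing the data. Peak lists carry no read counts, so a member without a peak is one with no call at this unknown depth, not one shown to be unbound, and whole embryos average all tissues and stages.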
